A study of Homo sapiens with 16 samples.

Results

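The zinc finger gene cluster of chromosome band 19p12 was followed through Top1 depletion by total RNA-seq. Its members were chosen by position alone, as every gene of the deposited table that lies on chromosome 19 between 19900000 and 24500000 in hg19. This rule found 34 of the 19333 genes of the table. They are numbered here from 1 to 34 in order along the chromosome, from the distal side of the band towards the centromere. The RNA was from the human embryonic kidney line HEK293, whose cells had been transfected with a negative control RNA (scramble, 2 libraries) or with 10 nM of siRNA against Top1 (Top1 KD, 2 libraries) and were harvested on day 5 after the first transfection. The samples were taken at different passages of this 1 cell line, and which of the study's Top1 siRNAs these libraries received was not given in the sources used here. The other 12 samples of the study, made by R-loop immunoprecipitation (DRIP-seq and DRIPc-seq) or by ChIP-seq of RNA polymerase II, were not analysed here. The libraries held from 14681774 to 18366226 reads on genes.

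Band 19p12 is known as a domain in which nearly every gene encodes a protein with a KRAB domain and a row of C2H2 zinc fingers. The zinc fingers bind DNA, often within transposable elements, and the KRAB domain recruits the corepressor TRIM28, which brings the methyltransferase SETDB1 and the heterochromatin mark H3K9me3. Such genes arose by tandem duplication, so neighbours share sequence, and their own gene bodies often carry H3K9me3. Top1 removes the supercoils that transcription leaves in DNA. The study placed R-loop gains after Top1 loss in long, highly transcribed genes near H3K9me3-marked patches and domains at the nuclear lamina. It reported that most genes with R-loop gains or losses did not change significantly in expression. The comparison here asks only whether transcript levels within the 19p12 domain differed after Top1 depletion, and R-loops were not analysed.

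The label could be checked against the data only by position. The table lists genes by Ensembl transcript identifier, and 0 of these 19333 matched an entry of the available name tables, so no member could be given a gene name, and the TOP1 transcript itself could not be looked up. In RefSeq (GRCh38.p14), the longest unbroken run of neighbouring protein-coding genes with a symbol beginning ZNF holds 27 genes and lies on chromosome 19, from ZNF737 to ZNF681. The rows of the table were not assigned to these names. No 2 members overlapped, and 18 lay on the + strand and 16 on the - strand. The gap between neighbours had a median of 78.0 kb and ranged from 1.39 to 415 kb. The members had a median span of 31.9 kb and a range from 0.87 to 44.9 kb, against a median of 21.7 kb over all genes of the table. The shortest were member 4, at 0.87 kb, and member 26, at 13.8 kb. The members share sequence with one another, and the study kept uniquely mapped reads only, so reads from near-identical stretches can be missing from every value given here.

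Expression within the cluster was divided into stretches. Levels are given as normalized counts, which are read counts divided by the size factor of their library. A gene was tested when 2 or more libraries gave it 10 or more normalized counts. Of the 34 members, 17 were tested, 12 had reads but stayed below this filter, and 5 had no read in any library. The tested share was 50.0%, against 67.7% of all genes of the table. All 10 members from number 10 to number 19 were tested. None of the next 9, from number 20 to number 28 (22.15 to 23.33 Mb), reached the filter. Each value is a mean over a culture, so few expressing cells and little RNA per cell cannot be told apart.

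**Figure D1:**
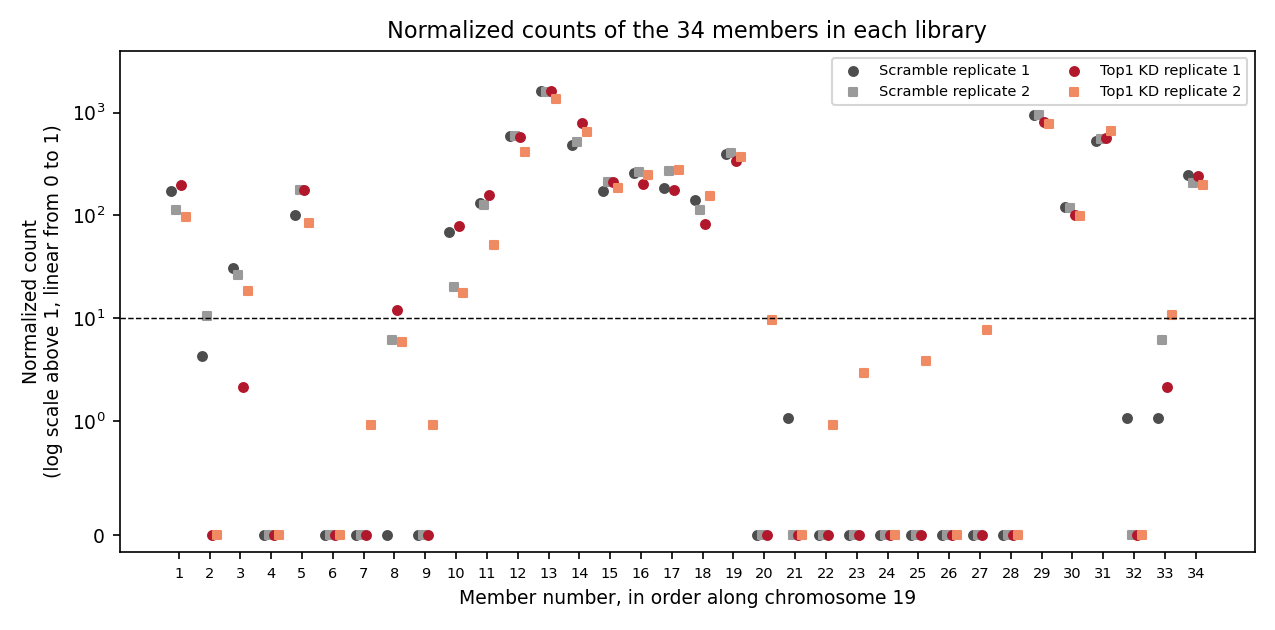
Normalized counts (vertical axis, logarithmic above 1 and linear from 0 to 1) of the 34 members in order along chromosome 19 (horizontal axis), 1 point per library, with the filter of 10 normalized counts as a dashed line. Members 10 to 19 stand above the line in all 4 libraries, while members 20 to 28 lie at or below 9.69 normalized counts.

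Few members carried most of the cluster's reads. Member 13 (chromosome 19, 21265006 to 21305954, + strand) took 25.1% of them, the top 3 members took 49.2% and the top 6 took 73.7%. Per kb of gene span, which includes introns, the mean level over the 4 libraries was 37.6 normalized counts per kb for member 13, 30.1 for member 29, 16.8 for member 31, 13.9 for member 14, 13.8 for member 12, 11.97 for member 16, 8.42 for member 19, 7.50 for member 17, 5.25 for member 34 and 5.08 for member 15. Members 13 and 29 were above every other member in all 4 libraries, and their own ranges over the libraries (33.3 to 39.4 and 26.7 to 32.9) did not overlap. Members 31, 14 and 12 each overlapped the next in this order, as did members 19, 17 and 34. The order within the runs from member 31 to member 16 and from member 19 to member 15 is therefore not settled. The tested members were weakly expressed for tested genes. Their median level was 5.25 normalized counts per kb, against 15.0 over all 13086 tested genes. Not divided by span, the median was 224 normalized counts, against 542 over all tested genes.

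Top1 depletion did not move the cluster as a whole by an amount that these libraries could separate from their spread. The members held 0.0380% and 0.0388% of all reads of scramble replicates 1 and 2 and 0.0399% and 0.0357% of those of Top1 KD replicates 1 and 2. The Top1 KD values lay on either side of the scramble values, so the groups overlapped. The mean was 0.0384% ± 0.00058 (SD, n = 2) in scramble cells and 0.0378% ± 0.0030 (SD, n = 2) in Top1 KD cells (exact permutation test over libraries, two-sided, p = 1, where 2 against 2 cannot go below 0.33).

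Member by member, 0 of the 17 tested members were called differentially expressed, meaning 1.5-fold or more and past an adjusted p of 0.05 by limma, with Benjamini-Hochberg adjustment over all 13086 tested genes. Of all tested genes, 8.15% were called, 3.88% higher and 4.26% lower in Top1 KD cells. An unadjusted p under 0.05 was found for 1 of the 17 members, against 29.3% of all tested genes. The count tests edgeR and DESeq2 on the recovered reads also called 0 members, against 8.32% and 8.39% of all tested genes, and each gave 1 member with an unadjusted p under 0.05, against 29.1% and 26.9%. Without Top1 KD replicate 2, limma called 2 members, number 14 higher and number 3 lower, against 10.2% of all tested genes (4.42% higher and 5.73% lower).

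Limited precision goes with this count. The standard error of a member's log2 fold change had a median of 0.28, against 0.18 over all tested genes. The 95% interval of the change lay wholly within 1.5-fold in either direction for 3 of the 17 members (members 13, 29 and 31), which is 17.6% of them, against 35.8% of all tested genes. For the other 14, a change of 1.5-fold in at least 1 direction lay within the interval.

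**Figure D2:**
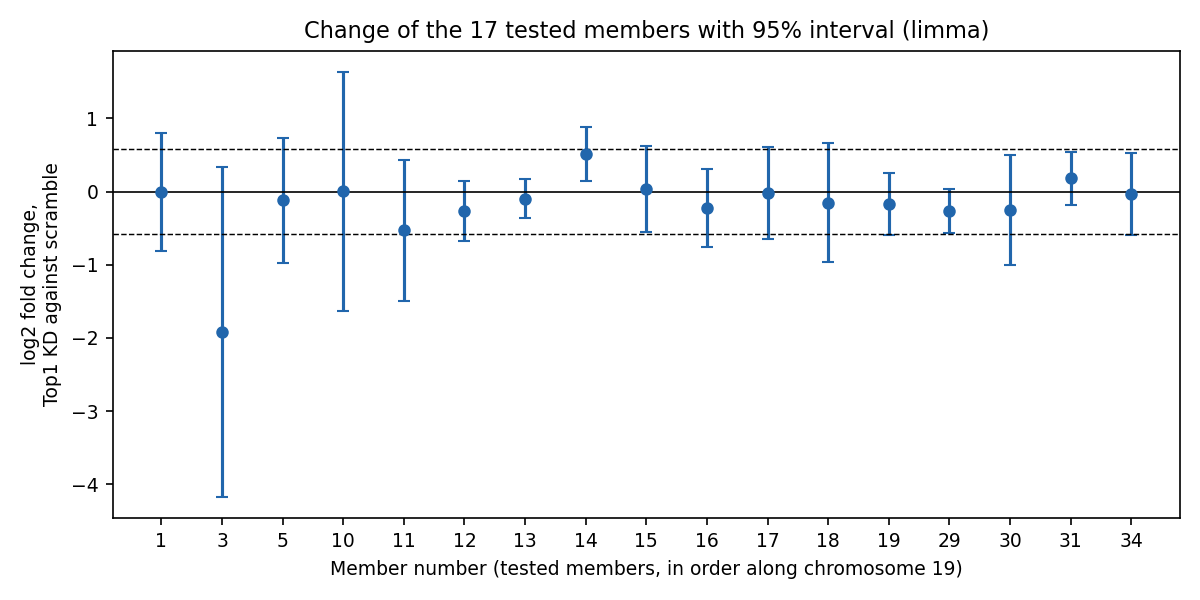
Log2 fold change of Top1 KD against scramble cells (vertical axis) for the 17 tested members in order along chromosome 19 (horizontal axis), with points for the limma estimate, bars for its unadjusted 95% interval and dashed lines at 1.5-fold. The interval of member 14 alone lies wholly on 1 side of 0, and those of members 3 and 10 are the widest.

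Member 14 came closest to a call. This gene (ENST00000311048, chromosome 19, 21324843 to 21368805, + strand) had 481 and 521 normalized counts in scramble cells and 792 and 643 in Top1 KD cells. Both Top1 KD libraries stood above both scramble libraries. The means were 501 ± 28.04 (SD, n = 2) and 717 ± 106 (SD, n = 2), which on the log2 scale is a change of 0.51 (standard error 0.17, 95% interval 0.14 to 0.88, adjusted p = 0.0594 by limma). The adjusted p missed the threshold, and the estimate was below 1.5-fold (0.58 on the log2 scale). With library-size scaling, and with the filter raised to a mean of 100 normalized counts, limma's adjusted p was 0.0481, but the estimates of 0.54 and 0.51 remained below 1.5-fold. Leaving out Top1 KD replicate 2 gave a log2 fold change of 0.66, and leaving out Top1 KD replicate 1 gave 0.36. Without scramble replicate 1 it was 0.45, and without scramble replicate 2 it was 0.57.

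Its nearest neighbours on the same strand were not higher in both Top1 KD libraries. Member 13, the most abundant gene of the cluster, had 1608 and 1577 normalized counts in scramble cells and 1614 and 1365 in Top1 KD cells, and the groups overlapped. Its log2 fold change was -0.10 (standard error 0.13, 95% interval -0.37 to 0.16). Member 12 (21203426 to 21242856, + strand) had 592 and 591 normalized counts in scramble cells and 584 and 415 in Top1 KD cells, so that replicate 2 alone stood clearly lower. The gaps from member 12 to member 13 and from member 13 to member 14 are 22.2 and 18.9 kb.

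Among the other abundant members, the replicates agreed closely for member 29 (ENST00000418100, chromosome 19, 23404401 to 23433162, - strand), the first gene after the stretch below the filter. It had 941 and 946 normalized counts in scramble cells and 807 and 767 in Top1 KD cells. Both Top1 KD libraries were lower than both scramble libraries, with means of 943 ± 3.35 (SD, n = 2) and 787 ± 28.8 (SD, n = 2) and a log2 fold change of -0.26 (95% interval -0.56 to 0.041, standard error 0.14, limma adjusted p = 0.236). Member 31 (ENST00000359788, 23835603 to 23870004, - strand) had 528 and 554 normalized counts in scramble cells and 563 and 669 in Top1 KD cells. The groups did not overlap, with a log2 fold change of 0.18 (95% interval -0.18 to 0.55, limma adjusted p = 0.525). Neither difference passed the test.

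In the middle of the cluster, members 15 to 19 had mean levels from 127 to 400.5 normalized counts in scramble cells. Member 16 had 257 and 267 normalized counts in scramble cells and 203 and 247 in Top1 KD cells, and member 19 had 398 and 403 against 339 and 371. In these members both Top1 KD libraries were lower than both scramble libraries. Member 17 had 185 and 273 normalized counts in scramble cells and 176 and 279 in Top1 KD cells. The replicates of each group thus differed more than the groups, whose means were 229 ± 62.3 (SD, n = 2) and 228 ± 72.7 (SD, n = 2). Member 15, at 172 and 213 against 210.0 and 183, and member 18, at 139.8 and 113 against 82.3 and 156, also overlapped between the groups.

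Counted over the 17 tested members, 13 (76.5%) had a negative and 4 a positive log2 fold change, against 49.8% negative over all tested genes. The median was -0.12, against 0.0025 over all tested genes, with quartiles at -0.25 and -0.0090. Both Top1 KD libraries were below both scramble libraries for 6 members (35.3%) and above them for 2 (11.8%), against 29.0% and 28.8% of all tested genes. The sign of the median rested on Top1 KD replicate 2. Against the scramble mean, the members' median log2 ratio was 0.019 in Top1 KD replicate 1 and -0.22 in Top1 KD replicate 2, while over all tested genes it was 0.0087 and 0.0075.

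The Top1 KD libraries differed from each other in many members. Between them, 7 of the 17 members (41.2%) differed at least 1.5-fold, against 18.5% of all tested genes. Between the scramble libraries this held for 3 members (17.6%), against 13.8% of all tested genes. Most of these members lay in the distal part. Among members 1 to 12, 5 of the 6 tested differed this far between the Top1 KD libraries and 3 between the scramble libraries. Among members 13 to 34 it was 2 (18.2%) and 0 of the 11 tested. The log2 ratio to the scramble mean had the same sign in both Top1 KD libraries for 8 of the 17 members. Tested members had lower levels than tested genes in general, and the part of counting error in this spread was not tested.

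**Figure D3:**
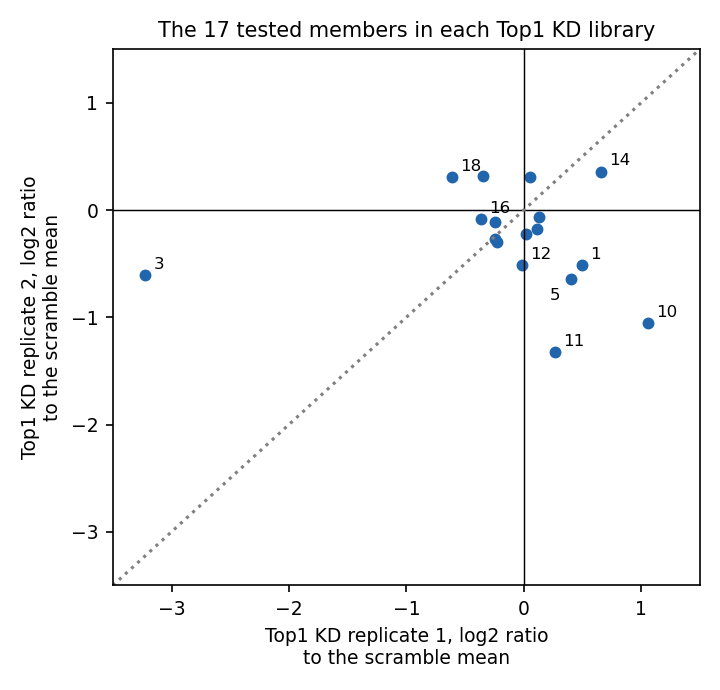
Log2 ratio to the scramble mean in Top1 KD replicate 1 (horizontal axis) and in Top1 KD replicate 2 (vertical axis) for the 17 tested members, 1 point per member, with member numbers at the outer points and equal ratios on the dotted line. Members 1, 5, 10 and 11 lie above 0 in replicate 1 and below 0 in replicate 2, and member 3 lies at -3.22 and -0.61.

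The largest disagreements were in weakly expressed members of the distal part, which were picked out after their values were seen. Member 11 (21106094 to 21133503, + strand) had 133 and 128 normalized counts in scramble cells and 157 and 51.4 in Top1 KD cells. Behind the last 2 values are 145 reads (95% Poisson interval 122 to 171) and 53 reads (39.7 to 69.3), intervals that cover counting error only and do not overlap. Member 10 (20959231 to 20990128, + strand) had 68.3 and 20.2 normalized counts in scramble cells and 79.0 and 17.4 in Top1 KD cells, so that it was about as far apart within each group, and its log2 fold change between the groups was 0.0022 (standard error 0.77). In member 10 each replicate 1 library was high and each replicate 2 library low. Member 1, the gene just inside the distal limit, had the same order, at 172 and 113 normalized counts in scramble cells and 197 and 96.9 in Top1 KD cells. Member 5 (20115227 to 20150315, - strand) had 100.3 and 178 normalized counts in scramble cells and 176 and 85.3 in Top1 KD cells, with the order of replicates opposite in the groups.

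Members 2 and 3, neighbours on the + strand with 6.39 kb between them, had their highest values in scramble cells. Member 3 (ENST00000343769, chromosome 19, 20011870 to 20046384) had 30.9 and 26.4 normalized counts in scramble cells and 2.16 and 18.4 in Top1 KD cells. The groups did not overlap, but the Top1 KD libraries were far apart. The log2 fold change was -1.92, with a standard error of 1.06, a 95% interval from -4.17 to 0.34 and a limma adjusted p of 0.244. This is the only tested member with an estimate of 1.5-fold or more, which 23.0% of all tested genes reached. Without Top1 KD replicate 2 its log2 fold change was -3.22 and it was called (limma adjusted p = 0.0480), and without Top1 KD replicate 1 it was -0.61. On the recovered reads the log2 fold change was -1.45 by edgeR and -1.47 by DESeq2, with adjusted p-values of 0.413 and 0.439. Member 2 (19976714 to 20005483), below the filter, had 4 and 12 reads in scramble cells and no read in either Top1 KD library, where a count of 0 allows up to 3 reads in each library.

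The stretch from member 20 to member 28 was nearly silent. Summed over its 9 members there were 1 and 0 reads in the scramble libraries and 0 reads in Top1 KD replicate 1, against 26 reads in Top1 KD replicate 2 (95% Poisson interval 16.98 to 38.1, counting error only). These 26 reads fell on 5 members, with 10 reads on member 20, 8 on member 27, 4 on member 25, 3 on member 23 and 1 on member 22. The reads were therefore present in 1 of the 2 Top1 KD libraries only, and no difference between the groups can be read from them. Over the whole cluster, 12 members had no read in the other 3 libraries, and 7 of these 12 had reads in Top1 KD replicate 2. Over all genes of the table, 4059 had no read in the other 3 libraries and 6.11% of these had reads in Top1 KD replicate 2. The same share was 6.48% for scramble replicate 1, 6.84% for scramble replicate 2 and 4.89% for Top1 KD replicate 1. Over the members, the corresponding count was 2 of 7 (28.6%) for scramble replicate 1. It was 0 of 5 for scramble replicate 2 and 0 of 5 for Top1 KD replicate 1. Top1 KD replicate 2, at 58.3%, was thus highest in the cluster but not over the whole table. Scramble replicate 1 also exceeded its share over all genes. These shares rest on few members, and their differences were not tested. Over the 17 members below the filter, reads numbered 7 and 26 in scramble cells and 13 and 45 in Top1 KD cells. Over all 6247 genes below the filter Top1 KD replicate 2 held 7704 reads, within the range of the other libraries (7019 to 9284).

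**Figure D4:**
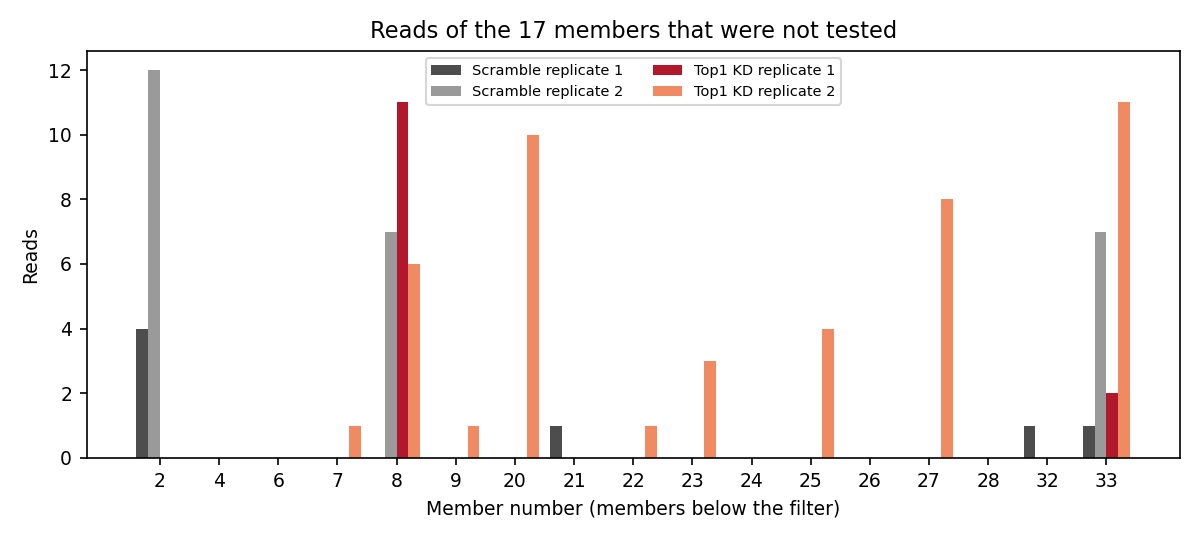
Reads (vertical axis) in each library for the 17 members below the filter (horizontal axis, by member number), 1 bar per library. From member 20 to member 28 the bars belong to Top1 KD replicate 2, apart from 1 read of scramble replicate 1 on member 21.

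The remaining members below the filter had reads in no steady pattern. Member 8 had 0 and 7 reads in scramble cells and 11 and 6 in Top1 KD cells, and member 33 had 1 and 7 against 2 and 11. Members 7, 9 and 32 had 1 read each in all. The members with no read in any library were numbers 4, 6, 24, 26 and 28.

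Towards the centromere, member 30 (23540498 to 23578362, - strand) had 121 and 118 normalized counts in scramble cells and 101 and 98.9 in Top1 KD cells. The replicates lay close together and the groups did not overlap, with a log2 fold change of -0.25 (standard error 0.35). Member 34, the last gene inside the limit, had 248 and 205 normalized counts in scramble cells and 244 and 199.7 in Top1 KD cells, and the groups overlapped. The nearest genes outside the limits were also not called. The gene before the distal limit (19821280 to 19843906) had 175.0 and 187 normalized counts in scramble cells and 150.4 and 138 in Top1 KD cells. The gene after the proximal limit starts 5386 kb beyond member 34, at 29698173, and had 1448 and 1558 against 1609 and 1421.

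The cluster was set beside the rest of chromosome 19. The genes from 52 to 54 Mb and from 56 Mb to the end of the chromosome, where the distal 19q13 zinc finger clusters lie, gave 96 tested genes, of which 3 were called (3.13%), all lower in Top1 KD cells. The other genes of chromosome 19, which still include zinc finger clusters, gave 746 tested genes, of which 6.70% were called. This set is therefore not free of zinc finger genes. The median log2 fold change was -0.12 in the 19p12 cluster, -0.14 in distal 19q13 and -0.073 on the rest of chromosome 19. The share of tested genes with a negative change was 76.5%, 64.6% and 56.7% in the same order. By Top1 KD library, the median log2 ratio to the scramble mean was -0.17 and -0.13 in distal 19q13 and -0.091 and -0.070 on the rest of the chromosome, negative in both libraries, against 0.019 and -0.22 in the 19p12 cluster. All the medians over both libraries lay below that of all tested genes, and no test of the differences between the gene sets was made. Tested genes of the 19p12 cluster were longer (median 34.5 kb) than those of distal 19q13 (14.5 kb) and of the rest of the chromosome (15.9 kb). The median over all tested genes, 31.4 kb, was close to that of the cluster. Median levels in the 19p12 cluster, distal 19q13 and the rest of the chromosome were 224, 202 and 282 normalized counts. Per kb of span they were 5.25, 12.4 and 16.0.

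**Figure D5:**
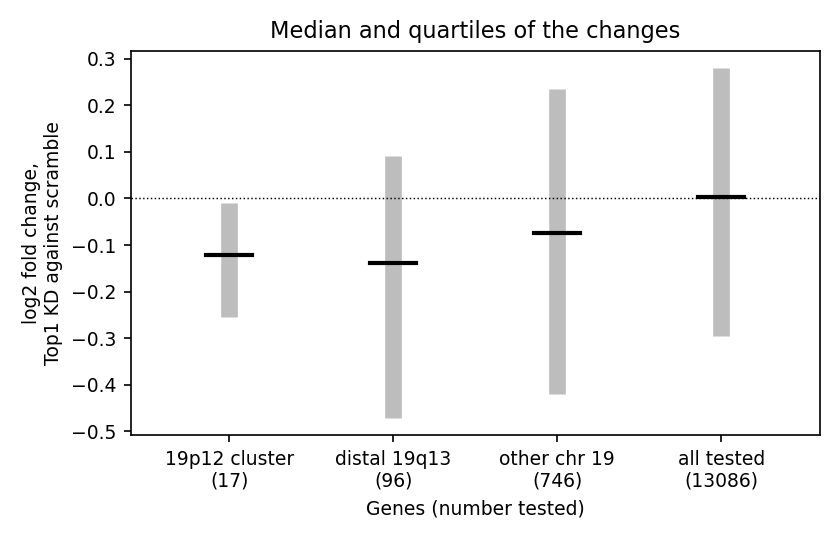
Log2 fold change of Top1 KD against scramble cells (vertical axis) in tested genes of the 19p12 cluster, of distal 19q13, of the rest of chromosome 19 and of the whole table (horizontal axis, with the number tested), with black lines for medians and grey bars from the lower to the upper quartile. The medians are -0.12, -0.14, -0.073 and 0.0025.

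Within the cluster, the log2 fold change followed neither position nor size closely. Over the 17 tested members, Spearman's rho was 0.11 with position, 0.23 with gene span and 0.25 with mean normalized count. These are descriptions over members that share the same 4 libraries.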

How the data were processed

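Total RNA-seq libraries of scramble and Top1 KD HEK293 cells were analysed. Per the paper's methods and the submitters' processing notes, single-end reads were cleaned with fastq-mcf, mapped to hg19 with TopHat2 2.0.5, kept if uniquely mapped, counted with HTSeq and normalized with DESeq2. The annotation release is not given in the sources used here. The authors deposited a signal per gene and library, the count divided by a size factor, not scaled for length. All 4 columns of values had a sample, and 0 were left without one. The authors' own fold changes, p-values and calls were not used. From 99.95% to 99.98% of values were whole multiples of 1 read (within 0.02 reads), so reads were recovered by rounding, and they give the depth and the counting precision.

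Groups were compared with limma 3.58.1 (R 4.3.3) after adding a pseudocount of 1 and taking log2, with the trend of variance on mean. Genes needed 10 or more normalized counts in 2 or more libraries. On this scale the pseudocount pulls changes of low counts towards 0. The p-values rest on the spread between 2 libraries a group, shared across genes. The method was tested on simulated data. Alternatives were edgeR 4.0.16 and DESeq2 1.42.0 on the recovered reads, other scalings, filters, pseudocounts, thresholds and limits, a replicate block and leaving out each library. Members and lists were chosen with earlier results of these data known. The rule for naming took called members, the 10 highest per kb, members past the adjusted p alone, and the genes at the limits. Others were added after their values were seen. At most 4 identifiers are given. Lists planned by gene name could not be used, as no identifier was paired with a name.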

Additional observations from a re-analysis of the deposited data

Results flagged for a closer look

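Members 20 to 28 of the cluster lay below the filter and so did not enter the main comparison. In the fit with no filter, which took every member with a read, 0 of 29 members were called. Members 20 to 28 held 26 reads in Top1 KD replicate 2. The scramble libraries held 1 and 0 reads on them, and Top1 KD replicate 1 held 0. The 26 reads, in rows outside the main fit, are more than either scramble library held. The reads came from 1 library, and the same members had none in the other Top1 KD library. No difference between the groups can be read from them.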

How the results depend on the processing

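The count of called members stayed at 0 under each of 12 alternatives of test, scaling, filter, pseudocount, fold threshold, limits and replicate block. With each replicate left out in turn (4 fits) it was from 0 to 2, with both calls in the fit without Top1 KD replicate 2. In those fits the single library of a group is assumed to vary like the other group. Their count over all genes was from 316 to 1329 and the members' median log2 fold change from -0.22 to 0.019, with the difference from the median of all tested genes from -0.23 to 0.011. That difference was -0.12 as reported and -0.011 with no filter, where 29 members were fitted, and the cause was not tested. Same-numbered libraries did not deviate together over all tested genes (correlation -0.010), while over the 17 tested members the correlation was 0.32. With a replicate block, 0 members and 1085 genes were called, and the block changed no call of a member. Values near 0 changed sign. The log2 fold change of member 1 was 0.042 by edgeR, 0.048 by DESeq2 and 0.016 with library-size scaling, and from -0.52 to 0.50 with a replicate left out. That of member 17 was 0.0089 with library-size scaling and from -0.35 to 0.31 with a replicate left out. With a replicate left out, member 34 ranged from -0.17 to 0.11, member 15 from -0.12 to 0.19 and member 13 from -0.22 to 0.019. The precision of the members, with a median standard error of 0.28, limits the size of change that could be called.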
